A study of Homo sapiens and Mus musculus with 12 samples.

Results

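Radial glia are the neural stem cells of the embryonic cortex. Each cell spans the wall of the forebrain, with an apical end at the ventricle and a long fibre toward the outer surface along which newborn neurons migrate. They divide at the ventricle, where Notch signalling through HES genes holds them in the progenitor state, and in primates many of them also settle as outer radial glia that have lost the apical contact. The cells are recognised by the intermediate filaments of their fibre, by a lipid carrier in their cytoplasm and by a set of proteins at their surface and in the matrix around them. The 10 genes described here encode such proteins. VIM and NES make filaments, FABP7 carries fatty acids, PTPRZ1, TTYH1, SLC1A3, GPM6B and PROM1 lie in the membrane, TNC is secreted into the matrix, and HOPX is a small nuclear protein used with TNC and PTPRZ1 as a mark of outer radial glia.

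The genes were taken by symbol, 10 of the 60675 gene identifiers in human, and by the matching gene descriptions in mouse, 10 of 47729. All 10 passed the filter on low counts in both species. Gene-level RNA-seq read counts came from 12 libraries of cortical organoids, stem cell aggregates that are guided in floating culture to form embryonic forebrain. H9, an established human embryonic stem cell line, gave the human organoids, which were harvested at week 4 (day 28). Their 2 genotypes were WT and a knockout of NOTCH2NL (KO), a human-specific group of partial copies of the Notch receptor gene NOTCH2. Each group had 3 libraries, each from a pool of 5 to 10 organoids. Both genotypes were grown on mouse feeder cells before differentiation and received the same inhibitors, SB431542, Dorsomorphin, IWR-1-Endo and Cyclopamine, of which Cyclopamine was withdrawn from day 24. The mouse embryonic stem cell line 46C gave the mouse organoids, harvested at day 6, again with 3 libraries a group, each a pool of 16 organoids. One group was a stable line with an empty vector (EV), and the other a stable line expressing the human gene form NOTCH2NL-Sh_T197I (N2NL). The sources used here do not name the promoter of that vector. Each group is 1 line (H9_WT_E2del19, H9_KO_E5del42, 46C_EV and 46C_N2NL), so genotype or vector and line cannot be told apart. The labels do not explain these codes, so whether the WT line itself carries an edit is not known here. Nothing in the labels ties the pools to separate cultures, so p-values measure only the spread between pools.

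Total counts ran from 15381409 to 16382938 in the human libraries and from 16781742 to 20960391 in the mouse libraries. The targeted gene followed the labels: NOTCH2NL had 4, 5 and 3 counts in the WT libraries and 0 in each KO library, and in the authors' deposited mouse table it was at 0 in each EV library and at 801, 709 and 740 normalized units in the N2NL libraries. The human counts were few, and a count of 0 allows up to 3 counts, so they check the knockout only weakly. Levels below are CPM, read counts scaled to a common library size, with TMM factors. The cortical progenitor marker EMX1 (looked up after the other values were seen) was at 51.0 to 111 CPM in WT and 16.9 to 77.7 CPM in KO, and in mouse at 13.9 to 14.6 CPM in EV and 17.9 to 20.5 CPM in N2NL. In bulk RNA, fewer cells of a type and less RNA per cell cannot be told apart.

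In human organoids the 10 genes ran from very abundant to scarce. Divided by the length of each gene's exons (CPM per kilobase, mean of 3 WT libraries), VIM was at 569 ± 37.2 (SD), far above the rest. NES followed at 112 ± 22.5 and TTYH1 at 95.3 ± 4.62, and the ranges of these neighbours overlapped (86.5 to 127 for NES, 91.7 to 101 for TTYH1). A middle group held FABP7 at 50.7 ± 13.5, GPM6B at 46.9 ± 2.68 and PTPRZ1 at 39.2 ± 15.5, which also overlapped each other. SLC1A3 stood apart below them at 14.4 ± 4.41. PROM1 at 3.32 ± 0.304 and TNC at 2.76 ± 1.11 overlapped, and HOPX was lowest at 0.912 ± 0.230. The order was the same in KO except that TNC, at 6.06 ± 0.122, was above PROM1, at 4.54 ± 0.718. With the longest transcript as the length, NES and TTYH1 changed places, as did FABP7 and GPM6B. No length annotation of mouse was used here, so mouse levels were not compared between genes.

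**Figure D1:**
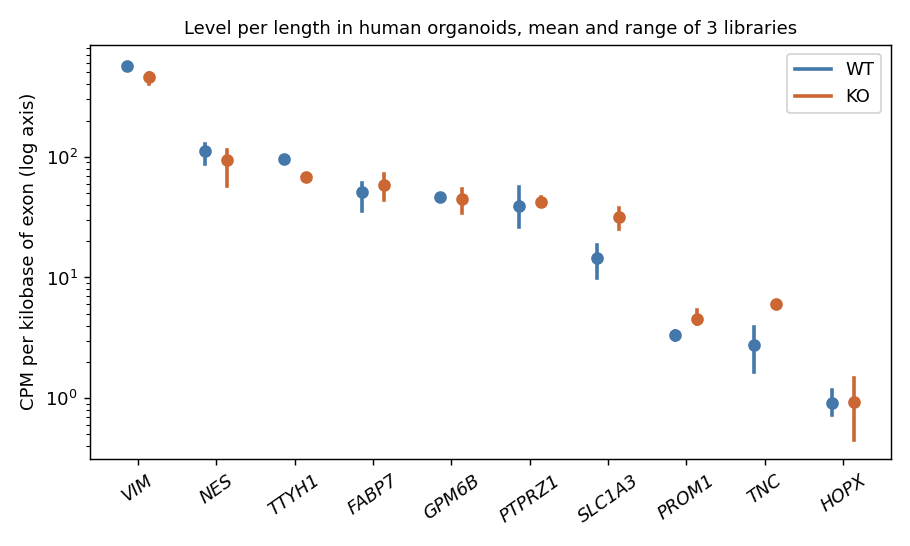
Level per length of the 10 genes in human organoids. The vertical axis is CPM per kilobase of exon on a log scale; points are means and lines the range of 3 libraries, WT in blue and KO in orange, with genes ordered by WT level. VIM leads at 569 in WT and HOPX is lowest at 0.912, and the WT and KO ranges are apart for VIM, TTYH1, SLC1A3, PROM1 and TNC.

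The first comparison asks which of these genes differ when NOTCH2NL is lost. TTYH1 fell by 0.48 on the log2 scale in KO and was the only 1 of the 10 to pass the test (edgeR quasi-likelihood, Benjamini-Hochberg adjusted p under 0.05). Across all 16956 genes tested, 5.5% passed, 2.31% higher and 3.19% lower, so 1 of 10 is near the background. Under the other methods run, 3 of the 10 passed with DESeq2, with limma-voom and with a replicate block (8.31%, 4.94% and 5.3% of all genes) and 4 with no filter on low counts (6.55%). Counted by whether the 3 KO libraries all lay outside the WT range, 3 genes were higher (SLC1A3, TNC and PROM1) and 2 lower (VIM and TTYH1), against 14.1% and 14.7% of all genes tested. At an unadjusted p under 0.05 there were 5 of 10, the same 5 genes, against 22.8% of all genes. The median log2 fold change of the 10 was 0.07, beside 0.00 over all genes tested, so the genes did not move one way. Their summed level, in which VIM weighs most, was 5067 to 5358 CPM in WT and 3893 to 4922 CPM in KO.

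**Figure D2:**
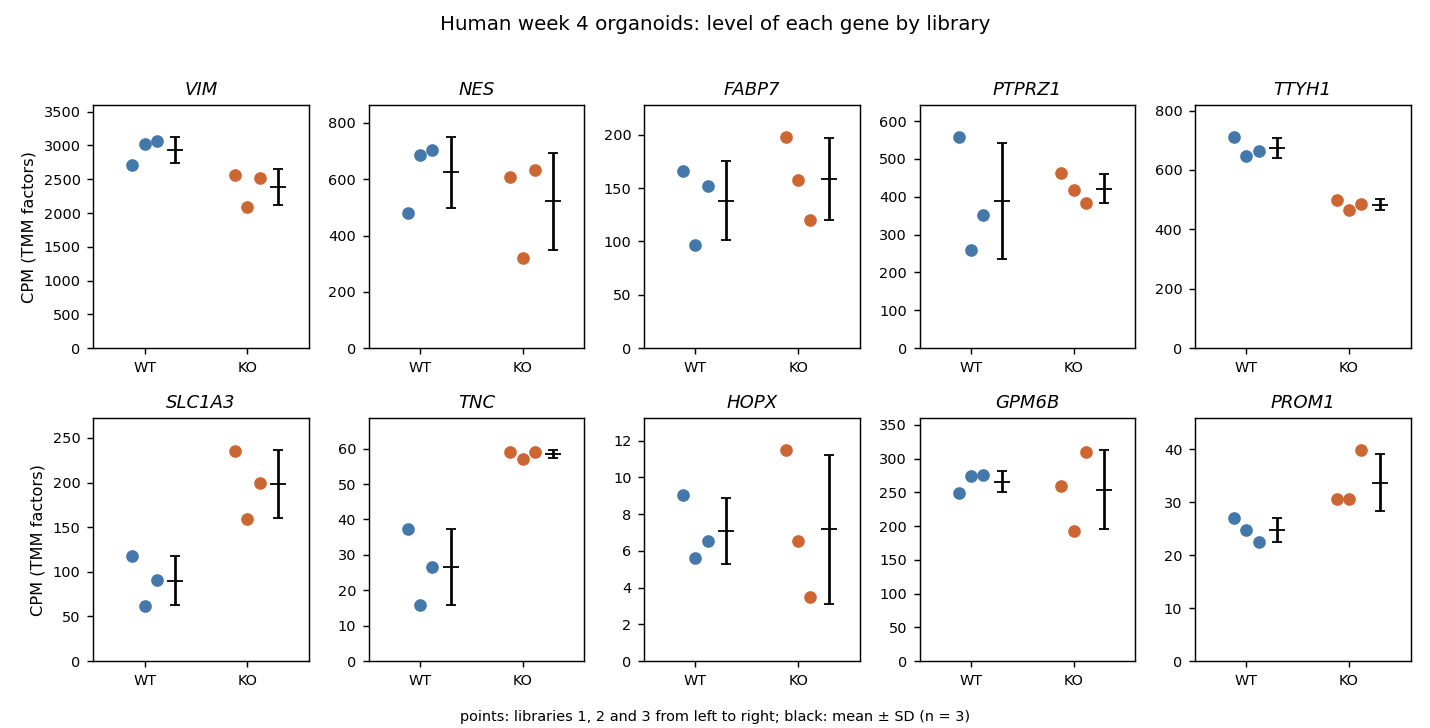
Level of each gene in the human libraries. Each panel shows CPM with TMM factors from 0, with 3 WT libraries in blue and 3 KO libraries in orange (libraries 1, 2 and 3 from left to right) and the mean ± SD beside them. TTYH1 and VIM are lower and SLC1A3, TNC and PROM1 higher in all 3 KO libraries than in any WT library; TTYH1 alone passed the test.

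Among the filament genes, VIM (ENSG00000026025, chr10:17228259-17237593, plus strand, GRCh38) encodes vimentin, the main filament protein of the radial fibre. It was at 2712, 3020 and 3064 CPM in WT and at 2557, 2084 and 2512 CPM in KO. All 3 KO libraries lay below the lowest WT library, though KO 1 and WT 1 were close. The means were 2932 ± 192 and 2384 ± 261 CPM (SD, n = 3), a log2 fold change of -0.30 ± 0.10 (approximate standard error) that did not pass (edgeR adjusted p = 0.121). NES (ENSG00000132688, chr1:156668763-156677397, minus strand) encodes nestin, which copolymerises with vimentin in dividing progenitors. It was at 481, 688 and 706 CPM in WT and at 609, 322 and 634 CPM in KO. The groups overlapped, and the spread came from a low WT 1 and a lower KO 2, with a log2 fold change of -0.26 ± 0.30 (edgeR adjusted p = 0.661).

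FABP7 (ENSG00000164434, chr6:122779475-122784074, plus strand) encodes the brain fatty acid binding protein of radial glia. It was at 166, 96.6 and 152 CPM in WT and at 198, 158 and 120 CPM in KO. WT 2 was the lowest and KO 1 the highest library, the groups overlapped, and the log2 fold change was 0.20 ± 0.26 (edgeR adjusted p = 0.713). FABP7 and GPM6B have annotated pseudogenes, so their counts depend on how reads that fit several places were treated.

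Of the membrane genes, TTYH1 (ENSG00000167614, chr19:54415219-54436900, plus strand) encodes Tweety homolog 1, a multi-pass protein of the tweety family with a role in neural stem cell maintenance. It was at 711, 648 and 663 CPM in WT and at 500, 466 and 485 CPM in KO. The groups were far apart relative to their spread, since the whole WT range and the whole KO range were each narrow. TTYH1 fell from 674 ± 32.7 to 484 ± 17.1 CPM (SD, n = 3), which is 1.39-fold lower with a log2 fold change of -0.48 ± 0.08 (edgeR adjusted p = 0.00964). The call was lost without KO 1 (edgeR adjusted p = 0.056, log2 fold change -0.49) and held in the other 5 sets with 1 library left out. The authors' deposited table gives a log2 fold change of -0.46 with an adjusted p of 3.91e-05. An RNA annotated within an intron of TTYH1 on the same strand had at most 8.02 CPM.

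The TTYH1 start region is shown because this gene passed the test. In the 250 bases before its RefSeq start (GRCh38.p14), 77.6% of bases were C or G, there were 29 CpG, and the E-box letters CANNTG, which basic helix-loop-helix factors such as the proneural proteins read, occurred 2 times. The capitals mark those letters, which begin 222 and 172 bases before the start, at chr19:54415230-54415259 and chr19:54415280-54415309 on the plus strand.
TTYH1 far stretch: cgcgatgcaagcCAGCTGtccggatgccgc
TTYH1 near stretch: ctgcgcgggcagCAGGTGggagccgcgacc
These letters were in 61.8% of all 34943 RefSeq promoter windows of that length, and in 7 of the 17 windows of the 10 genes, from 5 genes, both strands searched. The core letters read by RBPJ, the DNA-binding partner of Notch, TGGGAA, were not in the TTYH1 window. The GENCODE 29 start of TTYH1 lies at the upstream end of this window, so the stretches may be transcribed.

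SLC1A3 (ENSG00000079215, chr5:36606355-36688334, plus strand) encodes the glutamate transporter GLAST, which clears glutamate around radial glia and later astrocytes. It was at 117, 62.1 and 91.2 CPM in WT and at 235, 159 and 200 CPM in KO. Every KO library lay above every WT library, and within each group library 1 was highest and library 2 lowest. The means were 90.2 ± 27.6 and 198 ± 38.2 CPM (SD, n = 3), 2.20-fold higher in KO (log2 1.14 ± 0.26), which did not pass (edgeR adjusted p = 0.066). It passed with DESeq2 (adjusted p = 1.96e-06), with limma-voom (adjusted p = 0.0219), and with edgeR without WT 1 (adjusted p = 0.0351) or without WT 2 (adjusted p = 0.0463). The authors' deposited table gives a log2 fold change of 0.98 with an adjusted p of 1.54e-06.

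PROM1 (ENSG00000007062, chr4:15963076-16084378, minus strand) encodes prominin 1 (CD133), a cholesterol-binding protein of apical membrane protrusions. It was at 27.0, 24.7 and 22.5 CPM in WT and at 30.6, 30.6 and 39.9 CPM in KO. The groups did not overlap, and KO 3 stood above the other KO libraries. The log2 fold change was 0.45 ± 0.13 and did not pass (edgeR adjusted p = 0.0827), while it passed without WT 1 (edgeR adjusted p = 0.0485) and with no filter on low counts (edgeR adjusted p = 0.0146).

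PTPRZ1 (ENSG00000106278, chr7:121873089-122062036, plus strand) encodes a receptor-type tyrosine phosphatase that binds pleiotrophin, contactin and tenascins. It was at 558, 259 and 351 CPM in WT and at 463, 418 and 385 CPM in KO. The 3 KO libraries fell inside the WT range, which WT 1 and WT 2 set 2.16-fold apart. The log2 fold change was 0.12 ± 0.28 (edgeR adjusted p = 0.851), and without WT 2 its sign turned, to -0.10. GPM6B (ENSG00000046653, chrX:13771031-13938638, minus strand) encodes a multi-pass membrane glycoprotein of neural cells. It was at 248, 274 and 276 CPM in WT and at 259, 193 and 310 CPM in KO. The KO libraries enclosed the WT range, and the log2 fold change of -0.07 ± 0.16 (edgeR adjusted p = 0.841) turned to 0.10 without KO 2.

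TNC (ENSG00000041982, chr9:115019578-115118257, minus strand) encodes tenascin C, a large matrix glycoprotein of the germinal zones and a ligand of PTPRZ1. It was at 37.3, 15.9 and 26.6 CPM in WT and at 59.2, 57.1 and 59.0 CPM in KO. The KO libraries were nearly equal, while WT 1 was 2.34-fold above WT 2, and the groups did not overlap. The means were 26.6 ± 10.7 and 58.4 ± 1.17 CPM (SD, n = 3), 2.20-fold higher in KO (log2 1.14 ± 0.28), which did not pass (edgeR adjusted p = 0.0731). Other settings put it past the threshold, among them DESeq2 (adjusted p = 4.93e-05), limma-voom (adjusted p = 0.023), and edgeR without WT 1 (adjusted p = 0.00377) or without WT 2 (adjusted p = 0.0156). The authors' deposited table gives a log2 fold change of 0.95 with an adjusted p of 3.86e-05.

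The TNC start region is shown because it held the only TGGGAA among the 17 promoter windows of the 10 genes. These letters were in 20.9% of all 34943 windows of that length. They begin 81 bases before the RefSeq start of TNC, in a stretch at chr9:115118221-115118250 on the minus strand, and are in capitals.
TNC stretch: caactgaaaaagTGGGAAaggatgtctgga
The window had 54.8% C or G and 12 CpG. The GENCODE 29 start of TNC lies upstream of this stretch. A match of letters is a description of the sequence, and no binding was measured in these libraries.

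HOPX (ENSG00000171476, chr4:56647988-56681899, minus strand) encodes a homeodomain-only protein that binds no DNA. It was at 9.06, 5.59 and 6.56 CPM in WT and at 11.5, 6.53 and 3.48 CPM in KO, from 57 to 177 counts a library. KO 1 and KO 3 were 3.30-fold apart, the groups overlapped, and the log2 fold change was 0.02 ± 0.41 (edgeR adjusted p = 0.987). Of the 3 outer radial glia marks among the 10 genes, TNC was thus apart between the groups, and PTPRZ1 and HOPX overlapped.

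The libraries of a group did not vary alike for all genes. In the authors' human normalized values, the columns of replicates 1 and 3 of each genotype hold the values of raw count columns 3 and 1, so which library is number 1 and which is number 3 is uncertain, and the numbers here are those of the raw count columns. Among the WT libraries, 7 of the 10 genes were highest in WT 1, and 6 of these (FABP7, PTPRZ1, TTYH1, SLC1A3, TNC and HOPX) were lowest in WT 2. VIM, NES and GPM6B went the other way and were lowest in WT 1. TNC departed most from its group mean among the WT libraries, by 0.49 on the log2 scale in WT 1 and by -0.74 in WT 2. TTYH1 departed least, by 0.08 or less in every human library. In KO, 7 genes were highest in KO 1 and 6 lowest in KO 2, where NES stood at -0.70. HOPX departed most among the KO libraries, by 0.68 in KO 1 and by -1.04 in KO 3.

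**Figure D3:**
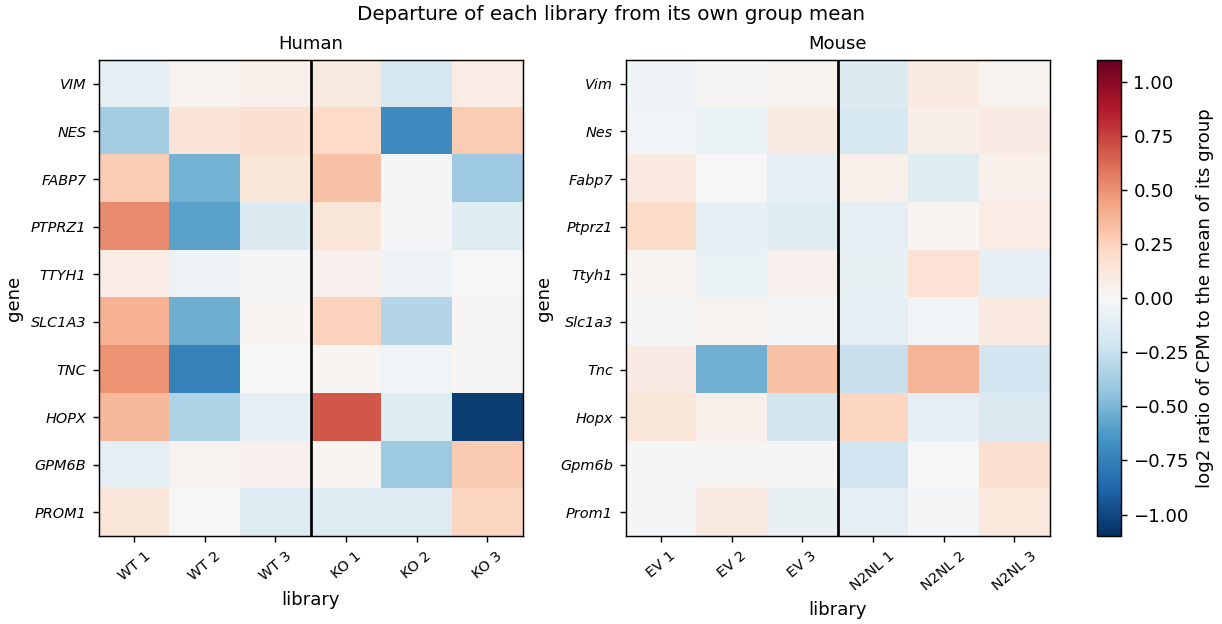
Departure of each library from the mean of its own group. Colour gives the log2 ratio of CPM to the group mean, red above and blue below, with genes in rows and libraries in columns, human on the left and mouse on the right. In WT 1, PTPRZ1 (0.52), TNC (0.49), SLC1A3 (0.38), HOPX (0.36) and FABP7 (0.27) are above their mean and NES (-0.38) below it, while the mouse libraries depart little except for Tnc.

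Other marker lists moved across the same WT libraries. The summed level of 11 radial glia transcription factors (such as PAX6, SOX2 and HES5) was 2277 CPM in WT 1, 1331 in WT 2 and 1616 in WT 3. The sum of 14 neuron markers was 4524, 5919 and 5635 CPM, and that of 7 choroid plexus and cortical hem markers 298, 2225 and 1199 CPM. WT 1 was thus highest in the first and lowest in the other lists. Their part in the spread of the 10 genes was not tested.

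Lists of related genes give the context in human organoids. Counts here are by edgeR, with which 2.31% of all genes tested passed higher and 3.19% lower. In the 14 lists, 32 of 110 tested genes had an unadjusted p under 0.05, against 22.8% of all genes. The relatives share 3 genes with the neuron list and 3 with the astroglia list. Of the 11 radial glia transcription factors, none passed in either direction (1 with DESeq2, ID4), with a median log2 fold change of 0.07 against 0.00 over all genes tested, and their sums overlapped (1331 to 2277 CPM in WT, 1494 to 2177 in KO). None passed among 6 intermediate progenitor markers (median 0.28). One of 6 proliferation genes rose, the mitotic cyclin CCNB1, with a log2 fold change of 0.50 ± 0.11 (edgeR adjusted p = 0.0269) and a list median of 0.40. For 3 of the 6 every KO library lay above every WT library, against 14.1% of all genes tested. DESeq2 also called MKI67, which did not pass with edgeR (log2 fold change 0.608, edgeR adjusted p = 0.0607). One of 10 apical junction and polarity genes rose, MPP5, a scaffold of the Crumbs complex, with a log2 fold change of 0.66 ± 0.16 (edgeR adjusted p = 0.0373) and a list median of 0.10. The CCNB1 call was lost in 4 and the MPP5 call in 5 of the 6 sets with 1 library left out, with the highest edgeR adjusted p at 0.106 (without KO 1) and 0.142 (without WT 3).

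Of 7 other outer radial glia markers, 2 fell (3.19% of all genes tested), none rose, and the list median was -0.26. FAM107A, an actin-associated protein, was at 152, 119 and 139 CPM in WT and at 73.8, 86.9 and 50.9 CPM in KO. It was lower in every KO library, with a log2 fold change of -0.95 ± 0.19 (edgeR adjusted p = 0.0354), but the call was lost in 4 of the 6 sets with 1 library left out (up to 0.133, without KO 1). STAT3, a transcription factor downstream of LIF family cytokines, fell by 0.61 on the log2 scale (edgeR adjusted p = 0.00732), lost only without WT 3 (edgeR adjusted p = 0.055). The summed level of this list was 317 to 332 CPM in WT and 236 to 252 CPM in KO, without overlap. That sum includes FAM107A and STAT3, so it is no separate evidence beside their calls. Only these 2 of the 7 genes had groups that did not overlap. MOXD1, called by DESeq2 and not by edgeR, was higher in KO by 0.665 on the log2 scale (edgeR adjusted p = 0.19).

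Family members of the 10 genes were read as a list of their own. Of 22 nearest relatives, 19 were tested, 5 fell (3.19% of all genes tested) and none rose, with a median of -0.28. TTYH2, the closest relative of TTYH1, was at 30.8, 37.8 and 30.6 CPM in WT and at 16.6, 19.4 and 16.6 CPM in KO. The groups were far apart, and TTYH2 fell by 0.92 on the log2 scale (edgeR adjusted p = 0.00461), a call that held in all 6 sets with 1 library left out (at most 0.0364). GPM6A, the neuronal relative of GPM6B, fell by 0.41 on that scale, from 353 ± 4.47 to 267 ± 10.9 CPM (SD, n = 3, edgeR adjusted p = 0.0158).

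PRPH, a filament protein of peripheral neurons in the family of VIM and NES, fell by 2.86 on the log2 scale, from 8.31 ± 3.48 to 1.14 ± 0.145 CPM (edgeR adjusted p = 0.00134). TNXB, a tenascin of connective tissue, fell by 1.496 (edgeR adjusted p = 0.0135), and FABP3, the heart form of the FABP7 family, fell by 1.05 (edgeR adjusted p = 0.0321). The PRPH call held in all 6 sets with 1 library left out. The calls of GPM6A and FABP3 were lost in 4 of the 6 and that of TNXB in 2, with the highest edgeR adjusted p at 0.0763, 0.142 and 0.0806, each without WT 3.

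Of 11 ligands, receptors and matrix partners, 2 fell (3.19% of all genes tested) and none rose, with a median of -0.26. NRCAM, an adhesion protein that pairs with PTPRZ1 through contactin, was at 176, 211 and 203 CPM in WT and at 123, 107.2 and 133 CPM in KO. The groups did not overlap, and NRCAM fell by 0.70 on the log2 scale (edgeR adjusted p = 0.00564), which held in all 6 sets with 1 library left out. NCAN, the chondroitin sulphate proteoglycan neurocan that binds tenascins, fell by 0.32 (edgeR adjusted p = 0.042), a call lost in 5 of the 6 sets (up to 0.165, without KO 1). The other 9 partners, pleiotrophin, midkine, contactin 1, versican, brevican and 4 integrin subunits, did not pass.

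Markers of other cell types were read in the same libraries. Among 14 neuron markers, TUBB3 and MAPT fell by 0.52 and 0.37 on the log2 scale (edgeR adjusted p = 0.0316 and 0.0404), each lost in 5 of the 6 sets with 1 library left out (up to 0.125 without WT 3 and 0.185 without KO 1). DESeq2 also called ELAVL4 and RBFOX3, which did not pass with edgeR. ELAVL4 was higher in every KO library than in any WT library (log2 fold change 0.506, edgeR adjusted p = 0.0621). RBFOX3 was lower in every KO library (log2 fold change -0.607, edgeR adjusted p = 0.0741). The neuron list median was -0.09, with 6 genes above 0 and 8 below. Its sums overlapped, at 4524 to 5919 CPM in WT and 4089 to 6159 in KO. Of 13 astroglia and oligodendrocyte markers, 10 were tested and none passed (median 0.02), while DESeq2 called the gap junction gene GJA1 and PDGFRA. Their sum was 197 to 231 CPM in WT and 240 to 268 CPM in KO, without overlap. GJA1 weighed much in that gap, at 24.0, 45.5 and 51.2 CPM in WT and 93.4, 109 and 70.5 CPM in KO. Of the 10 tested genes, 5 lay above 0 and 5 below, so the list did not move one way. Astrocyte markers of this list ran from scarce to well measured in the human libraries. GFAP was at no more than 2.85 CPM, AQP4 at no more than 0.182 CPM and ALDH1L1 at no more than 2.78 CPM. SLC1A2 was at 78.6 to 109 CPM, SPARCL1 at 3.504 to 24.1 CPM and S100B at 3.299 to 8.915 CPM.

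The choroid plexus and hem list had 1 of 7 rise, the homeobox gene MSX1 with a log2 fold change of 1.17 ± 0.26 (edgeR adjusted p = 0.0467), a call lost in 5 of the 6 sets with 1 library left out (up to 0.133, without KO 1). The list median was 1.17, and all 7 lay above 0. For 4 of the 7 every KO library lay above every WT library, against 14.1% of all genes tested. DESeq2 also called BMP4, which did not pass with edgeR (log2 fold change 2.463, edgeR adjusted p = 0.125). Its sum, mostly TTR, was 298 to 2225 CPM in WT and 1479 to 4322 CPM in KO, with overlap. The part of these lists in the values of SLC1A3, TNC and PROM1 was not tested.

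In the mesenchyme and neural crest list, with 6 of 10 tested and a median of -0.87, PDGFRB rose by 1.13 and LUM fell by 2.04 on the log2 scale (edgeR adjusted p = 0.0402 and 0.0181). Those calls were lost in 6 and 3 of the 6 sets with 1 library left out (up to 0.155 and 0.0974, both without WT 3). LUM was scarce, at 22, 23 and 29 counts in WT and 5, 5 and 8 counts in KO. DESeq2 also called COL1A2, which did not pass with edgeR (log2 fold change -1.145, edgeR adjusted p = 0.179). The sums of that list overlapped, at 37.2 to 47.4 CPM in WT and 29.6 to 51.6 CPM in KO. No tested gene passed in the pluripotency list (3 of 8 tested, median 0.19, at most 15.8 CPM summed, TDGF1 at 0 in every library), nor in the epithelium and endoderm list (3 of 7 tested, median 0.33, at most 32.9 CPM, SOX17 at 0). The endothelium, blood and microglia list (2 of 6 tested, median 1.17) had none passing either, with sums of 2.01 to 2.98 CPM in WT and 3.50 to 5.84 CPM in KO.

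The second comparison asks whether the same genes differ when NOTCH2NL is expressed in mouse organoids. None of the 10 passed (edgeR adjusted p under 0.05), and 2 of 16682 genes passed in all, 0.012%. At an unadjusted p under 0.05 there were 2 of the 10, Ttyh1 and Ptprz1, against 7.45% of all genes, and DESeq2 called 1 of the 10 (Ttyh1) against 0.162% of all. No filter on low counts gave 2 of the 10 (0.383% of all genes), and limma-voom and a replicate block gave 0 (0.00599% and 0.126%). The 3 N2NL libraries lay above all EV libraries for those 2 genes and below them for none, against 7.39% and 5.31% of all genes tested. The median log2 fold change of the 10 was 0.06, beside -0.01 over all genes, and their sums overlapped, at 1687 to 1740 CPM in EV and 1530 to 1760 CPM in N2NL.

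**Figure D4:**
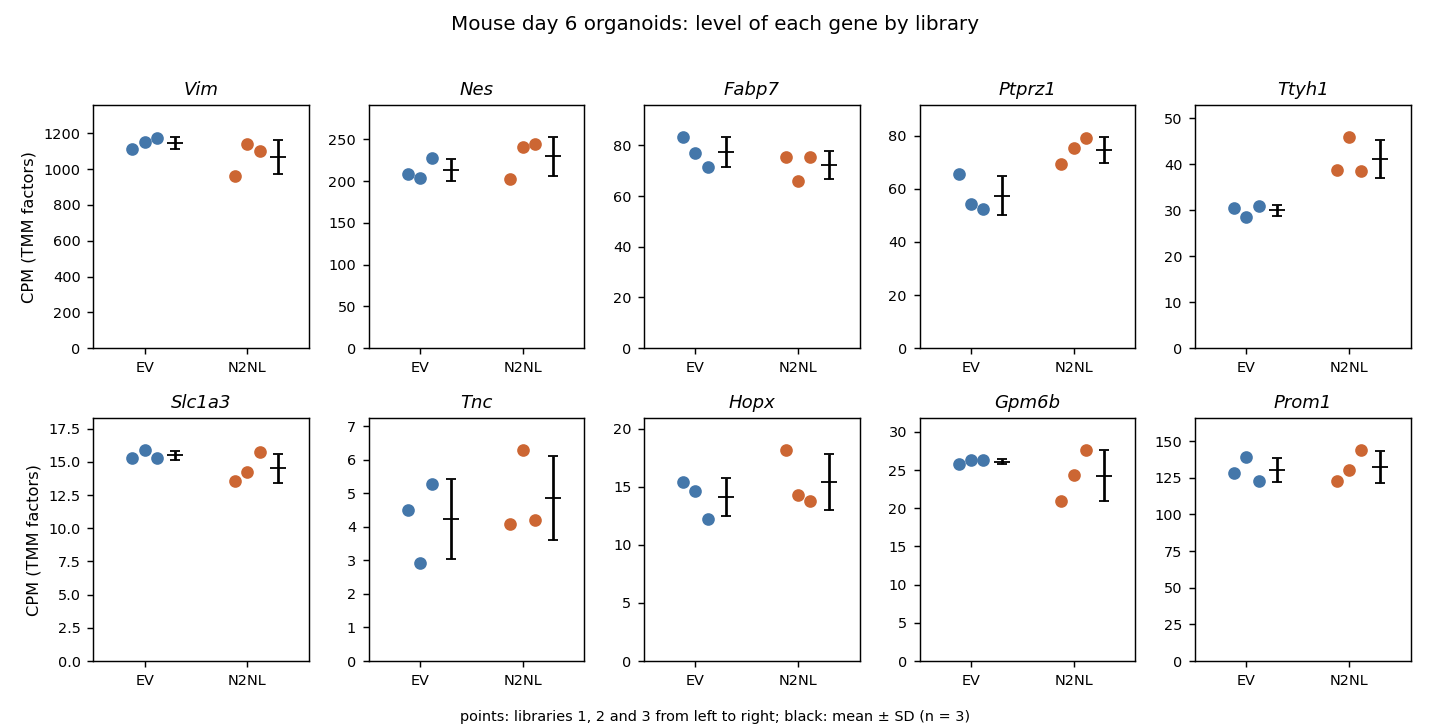
Level of each gene in the mouse libraries. Each panel shows CPM with TMM factors from 0, with 3 EV libraries in blue and 3 N2NL libraries in orange (libraries 1, 2 and 3 from left to right) and the mean ± SD beside them. The groups are apart for Ptprz1 and Ttyh1, with N2NL higher, and overlap for the other 8 genes; none passed the edgeR test.

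Ttyh1 (ENSMUSG00000030428) was at 30.4, 28.5 and 30.9 CPM in EV and at 38.8, 45.9 and 38.6 CPM in N2NL. The EV libraries were close together and all N2NL libraries stood clear of them, N2NL 2 highest. The means were 29.95 ± 1.255 and 41.1 ± 4.15 CPM (SD, n = 3), 1.37-fold higher in N2NL (log2 0.46 ± 0.09), which did not pass (edgeR adjusted p = 0.178). It passed with DESeq2 (adjusted p = 0.0438) and, in the authors' deposited table, with an adjusted p of 0.0113. Ptprz1 (ENSMUSG00000068748) was at 65.7, 54.1 and 52.4 CPM in EV and at 69.5, 75.5 and 79.0 CPM in N2NL. The groups did not overlap, although EV 1 came near N2NL 1, and the log2 fold change was 0.38 ± 0.09 (edgeR adjusted p = 0.29). The authors' deposited table gives Ptprz1 an adjusted p of 0.0319. With no filter on low counts both passed with edgeR (adjusted p = 0.00273 for Ttyh1 and 0.00598 for Ptprz1).

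The filament genes overlapped between the mouse groups. Vim was at 1110, 1152 and 1175 CPM in EV and at 964, 1143 and 1101 CPM in N2NL, with a log2 fold change of -0.10 ± 0.08 (edgeR adjusted p = 0.857). Nes was at 208, 203 and 228 CPM in EV and at 203, 241 and 245 CPM in N2NL, a log2 fold change of 0.11 ± 0.08 (edgeR adjusted p = 0.835). N2NL 1 was the lowest N2NL library for both, as for 7 of the 10 genes. Fabp7, the lipid carrier, was at 83.3, 77.2 and 71.4 CPM in EV and at 75.5, 65.9 and 75.5 CPM in N2NL, also overlapping (log2 fold change -0.10 ± 0.08, edgeR adjusted p = 0.867).

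The remaining surface and matrix genes likewise overlapped. Slc1a3 was at 15.3, 15.9 and 15.3 CPM in EV and at 13.6, 14.3 and 15.7 CPM in N2NL, with a log2 fold change of -0.10 ± 0.11 (edgeR adjusted p = 0.898). Tnc was scarce, at 4.50, 2.93 and 5.27 CPM in EV and at 4.08, 6.29 and 4.195 CPM in N2NL, from 62 to 108 counts a library, with a log2 fold change of 0.20 ± 0.24 (edgeR adjusted p = 0.906). Neither group of Tnc was tight, and the highest and lowest libraries belonged to different groups. Gpm6b was at 25.7, 26.3 and 26.4 CPM in EV and at 20.9, 24.3 and 27.6 CPM in N2NL, with a log2 fold change of -0.11 ± 0.11 (edgeR adjusted p = 0.88). Prom1 was at 128, 139 and 123 CPM in EV and at 123, 130 and 144 CPM in N2NL (log2 fold change 0.02 ± 0.08, edgeR adjusted p = 0.979). Hopx was at 15.4, 14.7 and 12.3 CPM in EV and at 18.2, 14.3 and 13.8 CPM in N2NL (log2 fold change 0.13 ± 0.14, edgeR adjusted p = 0.887).

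In mouse no gene of the 14 context lists passed with edgeR, 25 of 121 tested had an unadjusted p under 0.05 (7.45% of all genes), and DESeq2 called 5 (Sox9, Lhx2, Nefl, Stmn2 and Gap43) against 0.162% of all genes. The 11 radial glia transcription factors had a median log2 fold change of 0.26, all 11 lay above 0, and for 8 of them every N2NL library lay above every EV library (7.39% of all genes). Their summed level was 1058 to 1106 CPM in EV and 1246 to 1357 CPM in N2NL. The 14 neuron markers had a median of -0.23 and all lay below 0. Their sums did not overlap, at 1089 to 1305 CPM in EV and 911 to 1067 CPM in N2NL, and 5 of the 14, Tubb3, Stmn2, Elavl3, Gap43 and Nefl (named after their values were seen), were below the EV range in every N2NL library (5.31% of all genes). The 10 structural and membrane genes, with a median of 0.06, lay between these lists.

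Other mouse lists had medians of 0.13 (apical junction and polarity), 0.01 (proliferation), -0.06 (intermediate progenitors), -0.08 (other outer radial glia markers), -0.02 (relatives, 18 of 22 tested) and -0.05 (partners). Among markers of other cells, pluripotency genes were still well measured at day 6, with sums of 533 to 582 CPM in EV and 590 to 656 CPM in N2NL, without overlap, and a median of 0.12. The mesenchyme and neural crest sums did not overlap either, at 437 to 442 CPM in EV and 446 to 486 CPM in N2NL (9 of 10 tested, median 0.07). The sums of the remaining 4 lists overlapped, at 353 to 405 CPM for astroglia and oligodendrocytes (median -0.21), 361 to 471 CPM for choroid plexus and hem (median 0.02), 231 to 381 CPM for endothelium, blood and microglia (median -0.10) and 685 to 1407 CPM for epithelium and endoderm (median -0.15) over all mouse libraries. The part of these lists in the values of Ttyh1 and Ptprz1 was not tested.

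Side by side, TTYH1 had opposite signs in the 2 experiments, -0.48 ± 0.08 where NOTCH2NL was lost and 0.46 ± 0.09 where it was expressed. The mouse difference did not pass (edgeR adjusted p = 0.178). Signs were also opposite for SLC1A3, NES and FABP7. NES was at -0.26 ± 0.30 in human and 0.11 ± 0.08 in mouse, and FABP7 at 0.20 ± 0.26 and -0.10 ± 0.08. SLC1A3 was at 1.14 ± 0.26 in human and -0.10 ± 0.11 in mouse, TNC at 1.14 ± 0.28 and 0.20 ± 0.24, PROM1 at 0.45 ± 0.13 and 0.02 ± 0.08, PTPRZ1 at 0.12 ± 0.28 and 0.38 ± 0.09, and VIM at -0.30 ± 0.10 and -0.10 ± 0.08. Species, age of the organoids and the sense of the manipulation all differ between the experiments, and the difference between them was not tested.

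**Figure D5:**
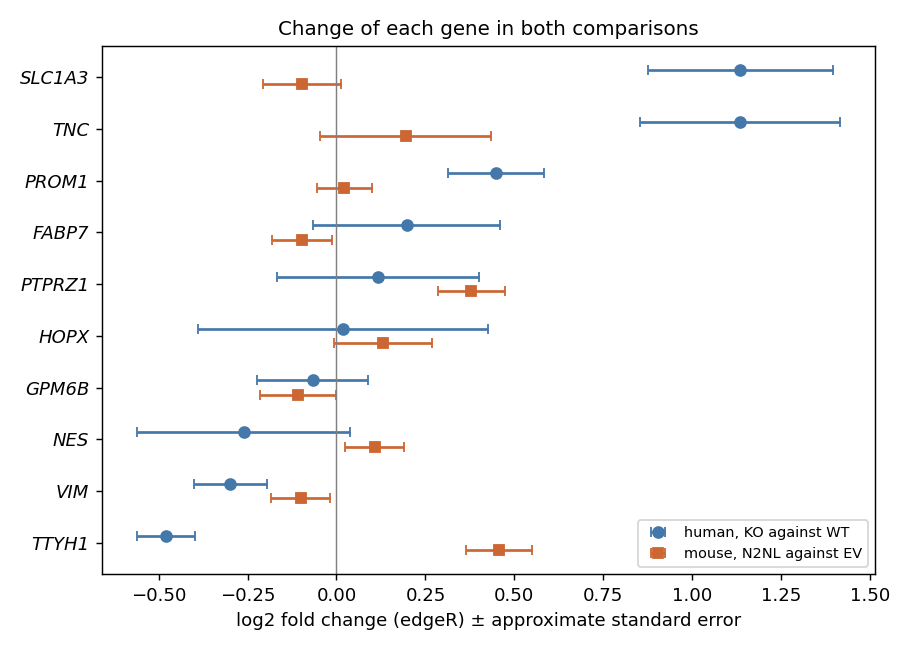
Log2 fold change of each gene in both experiments with its approximate standard error, KO against WT in human (blue circles) and N2NL against EV in mouse (orange squares). TTYH1 lies at -0.48 in human and 0.46 in mouse; SLC1A3 and TNC lie at 1.14 in human, to the right of all other values, and only human TTYH1 passed the edgeR test.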

How the data were processed

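RNA-seq was measured in 12 organoid libraries. A polyA selection preceded a strand-specific Ion library kit, per the labels' protocols. The submitters' processing notes list STAR 2.4.0, Bowtie2 2.3.3.1, Trimmomatic 0.36, DESeq2 2.11.39 and HTSeq 0.6.1p1, with no role for each. The sources used here do not state the strand setting of counting, so genes that overlap on opposite strands are uncertain. The authors deposited raw counts per gene, which were used as they stand. Per the file headers, the authors' comparison tables hold normalized values (treated here as a score), test statistics and p-values, and the human table also log2 fold changes, and only the values named as theirs were taken from these. Counter summary lines in the mouse table, including 26.64% to 33.67% of reads aligned to several places, were left out.

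Each species was fitted alone over all genes with edgeR 4.0.16 in R 4.3.3 (filterByExpr, TMM factors, robust quasi-likelihood F test, group as the only term, Benjamini-Hochberg threshold 0.05). Levels are CPM with TMM factors, as mean ± SD of 3 libraries. The ± of a log2 fold change is an approximate standard error. Alternatives were DESeq2 1.42.0, limma-voom (limma 3.58.1), other scaling factors, no filter, a replicate block and leaving out each library. The scripts were tested on simulated data. All 141 genes of the lists were matched to mouse genes by exact gene description. Lengths and positions came from GENCODE 29 (GRCh38), and promoter windows of all 10 genes from RefSeq. The members and 14 further lists were chosen with earlier results of these data known. The text names all 10 members and, of other lists, every gene past the edgeR test. Other genes of these lists given with a level or a DESeq2 call were named after their values were seen. With 3 libraries a group an exact two-sided permutation test reaches 0.1 at best, so none was run. A count of 0 in 1 library allows up to 0.195 CPM in human and 0.179 CPM in mouse (3 counts), for counting error only.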

Additional observations from a re-analysis of the deposited data

How the results depend on the processing

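With 3 libraries a group the number of calls depended on the setting, while the direction of TTYH1, SLC1A3, TNC, PROM1 and VIM in human and of Ttyh1 and Ptprz1 in mouse was the same under every alternative run. TTYH1 passed in human under all but 1 alternative, without KO 1. In human, 932 genes passed (391 higher, 541 lower), 2155 with no filter on low counts (957 and 1198) and 1409 with DESeq2 (612 higher), and 224 to 1440 when 1 library was left out (94 to 661 higher, 127 to 779 lower). Of the 10 genes, 1 passed, against 4 with no filter (TTYH1, TNC, PROM1 and VIM), 3 with DESeq2 and 3 with limma-voom (both TTYH1, SLC1A3 and TNC), and 0 to 4 with 1 library left out. In mouse, 2 genes passed (2 higher, 0 lower), 117 with no filter (79 and 38), 27 with DESeq2 (18 and 9), 1 with limma-voom (1 higher), and 0 to 17 with 1 library left out (0 to 6 higher, 0 to 11 lower). Of the 10 mouse genes, 2 passed with no filter and 1 with DESeq2. The cause of these differences was not tested.

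Deviations from the group means of same-numbered samples had correlations of 0.22, -0.11 and 0.13 in human and 0.14, 0.02 and -0.01 in mouse. Some samples correlated best with their own number and others did not. With 3 libraries a group, these few values cannot decide whether the numbers pair the samples. With the replicate block 899 human genes passed, and 3 of the 10 (TTYH1, SLC1A3 and TNC, edgeR adjusted p = 0.00109 for SLC1A3 and 0.0477 for TNC). The block ended the calls of FAM107A, MPP5, NCAN and TUBB3 (edgeR adjusted p = 0.0617, 0.0699, 0.0731 and 0.0575), and library size alone those of NCAN and MAPT (0.0557 and 0.0517). In mouse 21 passed with the block (8 higher, 13 lower) and 0 of the 10. Signs near 0 turned for human HOPX (-0.12 with limma-voom, -0.082 with the replicate block, -0.48 to 0.35 with 1 library left out), and with 1 library left out for human PTPRZ1 (-0.10 to 0.47) and GPM6B (-0.23 to 0.10) and for mouse Tnc (-0.032 to 0.39), Hopx (-0.011 to 0.20) and Prom1 (-0.043 to 0.073).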
